A study of Mus musculus with 15 samples.

Results

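The genes described here are the 3 transforming growth factor beta (TGF-β) ligands *Tgfb1*, *Tgfb2* and *Tgfb3*, the receptors *Tgfbr1*, *Tgfbr2* and *Tgfbr3*, the signal transducers *Smad2* and *Smad3*, the inhibitory *Smad7* and the corepressor *Skil*. They were chosen by symbol, and these 10 genes are among the 24982 gene symbols in the count tables. All 10 passed the filter on low counts that left 14121 genes for testing. They were measured in whole aortas of male WT C57BL/6 mice (C57BL/6J in the study's text) aged 10 months, with 5 mice in each of 3 groups and 1 library per mouse. All mice were given aldosterone for 7 days (200 µg/kg/d, by osmotic minipump) while 0.9% NaCl and 0.2% KCl were added to their water, a treatment called Aldo-salt. Control mice had a sham operation, orchiectomized mice had their testes removed, and the third group was orchiectomized and carried a pellet of the androgen dihydrotestosterone (DHT). Surgery preceded Aldo-salt by 2 weeks of recovery. No library came from a mouse without Aldo-salt, so each comparison is between Aldo-salt groups and asks how the aortic mRNA differed with the loss of testicular androgen or with its replacement.

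TGF-β is secreted in a latent form that latent TGF-β binding proteins and fibrillin hold in the matrix until integrins, proteases or thrombospondin release it. The active ligand binds the type II receptor TGFBR2, which phosphorylates the type I receptor TGFBR1, and betaglycan (TGFBR3) presents ligand to them. TGFBR1 then phosphorylates SMAD2 and SMAD3, which enter the nucleus with SMAD4. SMAD7 and SKIL limit the response and are themselves induced by it. In humans, inherited variants of *TGFB2*, *TGFB3*, *TGFBR1*, *TGFBR2*, *SMAD2* and *SMAD3* cause syndromes with aortic aneurysm.

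The upstream sequences of 3 of the genes are shown because *Tgfb1* was the 1 member that passed the threshold in a comparison, and because *Tgfb2* and *Tgfbr1* varied together between aortas. Each is the 250 bases before the start of the RefSeq gene on GRCm38.p6, the patch release of mm10, written 5′ to 3′ on the gene's strand. Capitals mark the SMAD box CAGAC and the GC box GGGCGG, read on both strands. *Tgfb1* lies at chr7:25686752-25687001 on the plus strand, *Tgfb2* at chr1:186705990-186706239 on the minus strand and *Tgfbr1* at chr4:47352972-47353221 on the plus strand.
Tgfb1: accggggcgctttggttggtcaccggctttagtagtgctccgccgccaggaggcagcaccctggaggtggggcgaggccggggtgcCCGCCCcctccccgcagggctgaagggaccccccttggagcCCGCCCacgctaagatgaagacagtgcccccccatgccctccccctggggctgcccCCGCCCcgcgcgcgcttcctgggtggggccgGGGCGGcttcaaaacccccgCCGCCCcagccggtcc
Tgfb2: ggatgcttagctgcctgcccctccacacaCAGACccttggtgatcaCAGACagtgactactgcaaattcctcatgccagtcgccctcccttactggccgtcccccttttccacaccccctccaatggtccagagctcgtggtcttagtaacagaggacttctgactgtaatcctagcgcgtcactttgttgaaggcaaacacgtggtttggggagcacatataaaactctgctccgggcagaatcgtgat
Tgfbr1: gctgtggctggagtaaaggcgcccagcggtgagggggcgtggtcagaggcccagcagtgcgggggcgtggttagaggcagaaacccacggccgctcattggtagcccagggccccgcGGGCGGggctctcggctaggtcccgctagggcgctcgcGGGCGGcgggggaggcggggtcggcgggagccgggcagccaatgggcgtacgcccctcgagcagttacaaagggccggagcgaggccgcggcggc

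The *Tgfb1* window held 5 GC boxes and no SMAD box, and 75.2% of its bases were G or C. The *Tgfbr1* window was similar in composition (74.8% G or C) and held 2 GC boxes and no SMAD box. RefSeq holds a second *Tgfbr1* window, chr4:47385966-47386215 on the plus strand, with 52.8% G or C, 1 SMAD box and no GC box. The *Tgfb2* window differed from the 2 windows printed with it, with 53.6% G or C, 2 SMAD boxes and no GC box. Over 32851 RefSeq promoter windows of the same length, 42.2% held a SMAD box and 32.7% a GC box, and the median G or C content was 52.4%. Neither the androgen receptor hexamer AGAACA nor the AP-1 motif TGANTCA was found in the 3 windows on either strand, against 16.1% and 6.75% of all windows. The motifs do not overlap one another in these windows. These are matches of letters and not evidence of binding.

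Per library, between 8268957 and 13816864 reads were assigned to genes (median 10930079). Levels are given as CPM, the reads of a gene per 1000000 reads in genes, scaled between libraries by the TMM method. The tissue label was borne out by the 8 smooth muscle markers, including *Myh11* and *Acta2*, whose summed level was between 11180 and 24969 CPM, with none at 0 in every library. Some orchiectomized libraries stood apart. The 7 B cell markers summed to between 7.84 and 172 CPM in orchiectomized mice against at most 12.3 CPM in any library of the other groups, and orchiectomized replicates 2, 3 and 4 had the highest sums. Orchiectomized replicate 2 had the lowest smooth muscle sum (11180 CPM) and the highest mesothelial sum (846 CPM, against at most 112 CPM in any other library).

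**Figure D1:**
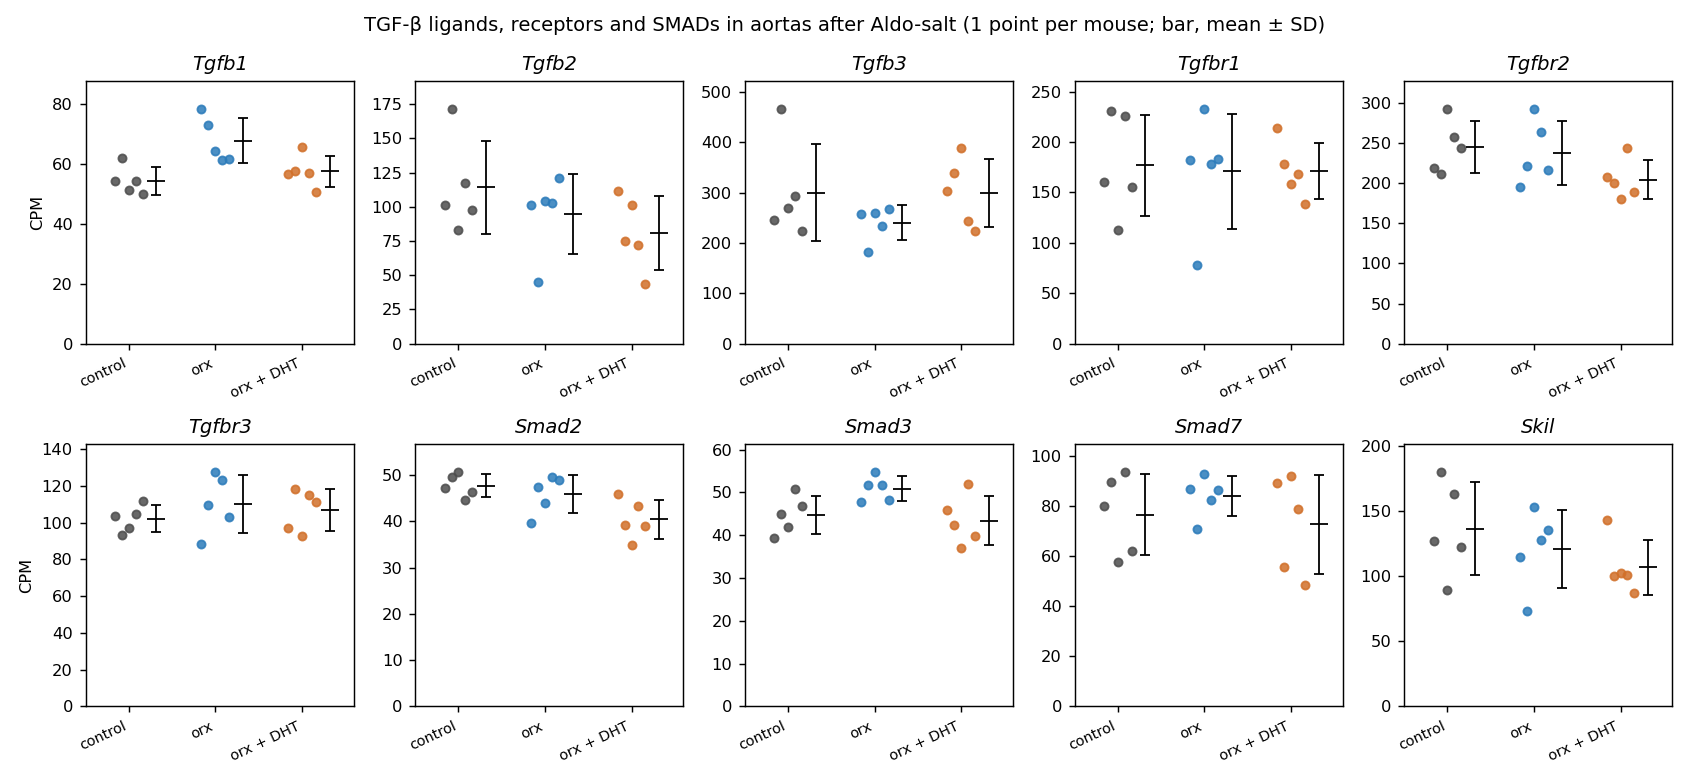
CPM (linear axis, from 0) of the 10 genes in each of the 15 aortas, by group (orx, orchiectomized), with the mean and SD of each group beside the points. The *Tgfb1* points of the orchiectomized mice lie between 61.5 and 78.4 CPM and those of the control mice between 50.1 and 62.1 CPM; the groups overlap for every gene.

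Of the ligands, *Tgfb1* rose after orchiectomy. Its level was 54.4, 62.1, 51.5, 54.4 and 50.1 CPM in the 5 control mice and 78.4, 73.0, 64.3, 61.5 and 61.9 CPM in the 5 orchiectomized mice. Of the orchiectomized mice 3 were above every control mouse, and the other 2, at 61.5 and 61.9 CPM, lay just below the highest control value. The means were 54.5 ± 4.62 CPM and 67.8 ± 7.54 CPM (SD, n = 5 each), a 1.24-fold difference. On the log2 scale the change was 0.31 (SE 0.09, 95% CI 0.12 to 0.51). In edgeR's quasi-likelihood test it passed the study's threshold, an unadjusted P value under 0.01, and ranked 206 of 14121 genes by P value. The Benjamini-Hochberg adjusted P = 0.285 over all genes tested, so it did not pass an adjusted threshold of 0.05. In whole tissue, more cells that express a gene and more RNA per cell cannot be told apart.

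In the orchiectomized mice given DHT, *Tgfb1* was at 56.6, 57.7, 65.6, 57.1 and 50.9 CPM. These values overlapped both other groups, and only 1 of them was above the highest control value. Against untreated orchiectomized mice the log2 fold change was -0.24 (SE 0.09, adjusted P = 0.159), which did not pass the threshold. Against control mice it was 0.08 (95% CI -0.12 to 0.28, adjusted P = 0.764).

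The *Tgfb1* call was a narrow one. It was lost in edgeR without control replicate 3, control replicate 5, orchiectomized replicate 1 or orchiectomized replicate 2, while the log2 fold change stayed between 0.26 and 0.36 over the 15 fits that left out 1 library each. The exact two-sided permutation test of log2 CPM gave P = 0.0238, where the smallest P value that 5 against 5 mice allow is 0.00794. Markers of immune cells moved with the same comparison. All 7 B cell markers, 5 of 6 tested T cell markers and both tested neutrophil markers, *S100a8* and *S100a9*, rose after orchiectomy. The rest of the 7 neutrophil markers, *Ly6g*, *Mpo*, *Elane*, *Retnlg* and *Cxcr2*, were too low to test. Summed T cell levels were 8.16 to 62.8 CPM against 4.30 to 14.4 CPM. Summed neutrophil levels over all 7 markers were 5.01 to 29.5 CPM against 0.748 to 2.26 CPM. Of the 8 macrophage markers, none passed the threshold (452 to 627 CPM against 264 to 737 CPM). The orchiectomized mouse with the highest *Tgfb1* level, replicate 1, had the lowest summed B and T cell markers of its group (7.84 and 8.16 CPM) and the second highest summed neutrophil markers (23.7 CPM). The summed neutrophil markers of the 5 orchiectomized mice, in the order of the *Tgfb1* values above, were 23.7, 29.5, 18.4, 5.01 and 9.10 CPM. Over all 15 aortas, with group means removed, the tested neutrophil markers had r = 0.060 with *Tgfb1* (rho = -0.172, adjusted permutation P = 0.918 for r). Of the skeletal muscle markers 2 of 7 fell after orchiectomy (summed level 11.2 to 417 CPM against 48.9 to 499 CPM), and 3 of 7 rose with DHT against orchiectomized mice (109 to 425 CPM). Of the mesothelial markers 2 of 8 rose after orchiectomy (69.6 to 846 CPM against 43.4 to 112 CPM), and of the adipocyte markers 1 of 7 fell (2419 to 4565 CPM against 2334 to 7609 CPM). The part of any of these cell types in the *Tgfb1* value was not tested. Without orchiectomized replicates 2, 3 and 4, a choice made after seeing the data, the *Tgfb1* log2 fold change was 0.32 with 2 mice left in that group, and it was not called.

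*Tgfb3* was the most abundant member. Per kilobase of merged exon (GENCODE vM21), its mean level in control mice was 88.6 ± 28.5 CPM per kb, against 19.7 ± 5.91 CPM per kb for *Tgfb2* and 10.8 ± 0.917 CPM per kb for *Tgfb1* (SD, n = 5), so the ligand that passed the threshold was the lowest of the ligands on this scale. *Tgfb3* was at 246, 466, 269, 293 and 224 CPM in control mice and at 257, 183, 259, 234 and 268 CPM in orchiectomized mice. Control replicate 2 was the highest of all libraries and orchiectomized replicate 2 the lowest. Orchiectomy gave a log2 fold change of -0.32 (95% CI -0.75 to 0.11, adjusted P = 0.527). With DHT, *Tgfb3* ranged from 223 to 388 CPM, and its log2 fold change against orchiectomized mice was 0.32 (95% CI -0.11 to 0.75, adjusted P = 0.389).

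*Tgfb2*, which needs betaglycan more than the other ligands do to reach its receptors, had group means of 114, 94.8 and 80.8 CPM in control, orchiectomized and DHT-treated mice. The spread was wide, from 82.8 to 171 CPM, from 44.8 to 121 CPM and from 43.7 to 112 CPM. The largest contrast, DHT-treated against control mice, had a log2 fold change of -0.50 (95% CI -1.09 to 0.10, adjusted P = 0.503).

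None of the 3 receptors was called in any comparison, and the groups overlapped for each. *Tgfbr1* had means of 177, 171 and 172 CPM in control, orchiectomized and DHT-treated mice, and its 3 log2 fold changes lay between -0.05 and 0.01 with intervals reaching from -0.58 to 0.54. In orchiectomized mice it ranged from 77.6 to 233 CPM, the low value being replicate 2. *Tgfbr2* had means of 245, 238 and 204 CPM, with log2 fold changes of -0.04 after orchiectomy (95% CI -0.32 to 0.23), -0.22 for DHT against orchiectomized mice (95% CI -0.49 to 0.06, adjusted P = 0.353) and -0.26 for DHT against control mice (95% CI -0.54 to 0.02, adjusted P = 0.450). *Tgfbr3* was the steadiest receptor, with means of 102, 110 and 107 CPM and all 15 values between 88.4 and 128 CPM. Its intervals exclude log2 changes larger than 0.34 in size in each comparison.

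The receptor-activated SMADs were the least abundant members per kilobase, at 8.06 ± 0.787 CPM per kb for *Smad3* and 5.43 ± 0.285 CPM per kb for *Smad2* in control mice (SD, n = 5). *Smad2* was at 47.2, 49.6, 50.7, 44.5 and 46.3 CPM in control mice, at 39.5, 47.3, 44.0, 49.7 and 48.8 CPM in orchiectomized mice and at 45.8, 39.1, 34.8, 43.2 and 39.0 CPM with DHT. Of the DHT values, 4 of 5 were below every control value. DHT against control mice gave a log2 fold change of -0.24 (SE 0.09, adjusted P = 0.337), short of the threshold. It passed without DHT replicate 1 (-0.29) and with limma's voom with quality weights (-0.26). Over the fits that left out 1 library it lay between -0.29 and -0.20. For DHT against orchiectomized mice it was -0.18 (95% CI -0.37 to 0.00614, adjusted P = 0.252), which passed with voom with quality weights alone (-0.25). Leaving out 1 library gave values between -0.23 and -0.12 here.

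*Smad3* was at 39.4, 44.9, 41.8, 50.7 and 46.7 CPM in control mice, at 47.7, 51.7, 54.8, 51.8 and 48.2 CPM in orchiectomized mice and at 45.8, 42.3, 37.0, 52.0 and 39.8 CPM with DHT. In the DHT group 4 of 5 values were below all orchiectomized values, and replicate 4 was higher than 4 of the 5 orchiectomized mice. DHT against orchiectomized mice gave a log2 fold change of -0.23 (SE 0.10, adjusted P = 0.191), and it passed the threshold without DHT replicate 4 (-0.30). Over the fits that left out 1 library it lay between -0.30 and -0.16. Orchiectomized against control mice gave 0.19 (95% CI -0.02 to 0.39, adjusted P = 0.454).

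Neither negative regulator was called in any comparison. *Smad7*, the inhibitory SMAD that blocks the receptors, had means of 76.7, 84.0 and 72.9 CPM and ranges of 57.5 to 93.8, 71.1 to 92.7 and 48.4 to 92.1 CPM. *Skil*, which encodes the SMAD corepressor SnoN, had means of 136, 120 and 107 CPM and ranges of 89.2 to 180, 73.0 to 153 and 87.0 to 143 CPM. The DHT group held 4 *Skil* values between 87.0 and 102 CPM and 1 of 143 CPM. For DHT against control mice the log2 fold change of *Skil* was -0.35 (95% CI -0.80 to 0.09, adjusted P = 0.529), and that of *Smad7* was -0.07 (95% CI -0.46 to 0.31).

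**Figure D2:**
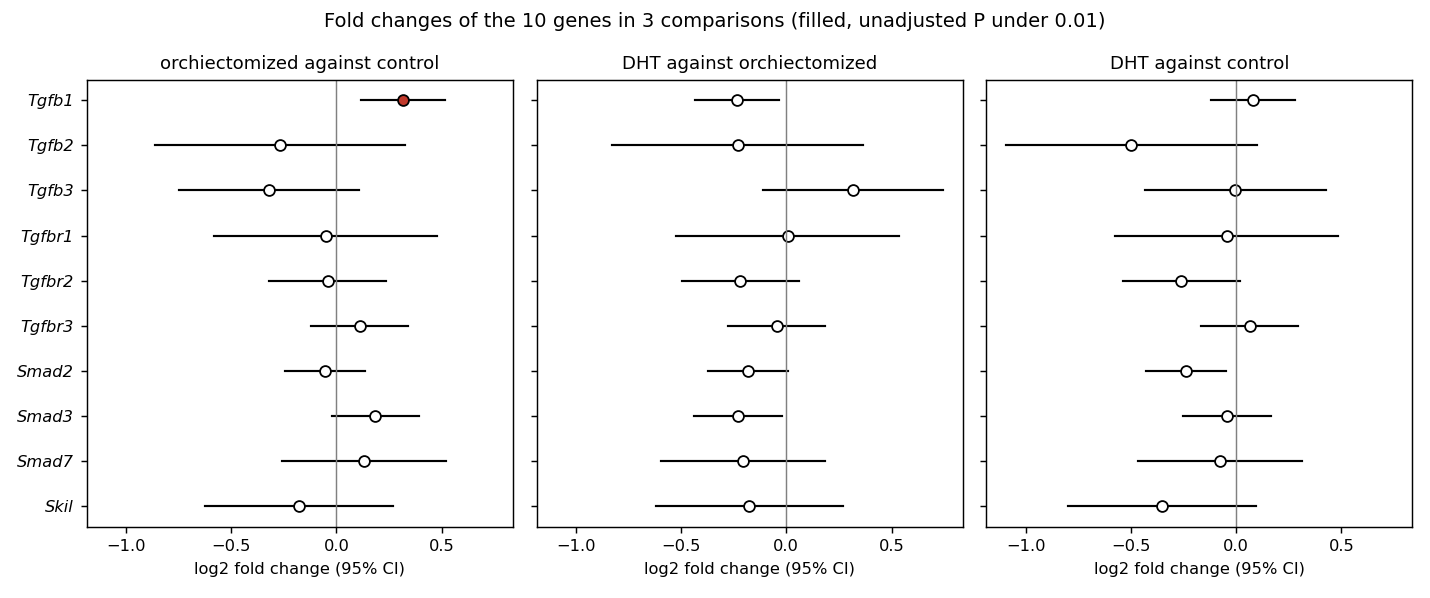
Log2 fold changes (points) with 95% confidence intervals (lines) of the 10 genes in the 3 comparisons, from edgeR. The filled point is *Tgfb1* in orchiectomized against control mice, at 0.31; all other points are open, that is with an unadjusted P value of 0.01 or more, and 26 of the 30 intervals include 0.

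Over the 10 genes, orchiectomy against control gave 1 call, *Tgfb1*, at an unadjusted P value under 0.01, where 3.22% of all genes tested were called and 2.08% were called higher. At P under 0.05 it was also the 1 member called, against 12.0% of all genes. DHT against orchiectomized mice gave 0 members called at P under 0.01 (9.72% of all genes) and 2 at P under 0.05, *Tgfb1* and *Smad3* (21.2% of all genes). DHT against control mice gave 0 at P under 0.01 (3.53% of all genes) and 1 at P under 0.05, *Smad2* (11.8% of all genes). No member had an adjusted P value under 0.05 in edgeR or DESeq2 in any comparison, against 0%, 4.72% and 0.262% of all genes with edgeR in the order above. With DESeq2, 131, 1285 and 229 of the 14121 genes had one. DESeq2 called the same numbers of members as edgeR at P under 0.01. No member separated 2 groups without overlap in any comparison, where 1.51%, 6.43% and 3.58% of all genes did. Among 10 genes, each background share at P under 0.01 corresponds to fewer than 1 gene.

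The median log2 fold change of the members was -0.05 after orchiectomy, -0.19 for DHT against orchiectomized mice and -0.06 for DHT against control mice, beside 0.04, -0.02 and -0.00292 over all genes tested. The point estimates lay above 0 for 4 of the 10 members after orchiectomy, where 56.8% of all genes did, for 2 in DHT against orchiectomized mice (46.7% of all genes), which were *Tgfb3* and *Tgfbr1*, and for 2 in DHT against control mice (49.5% of all genes). The comparisons share groups and are not independent of each other.

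**Figure D3:**
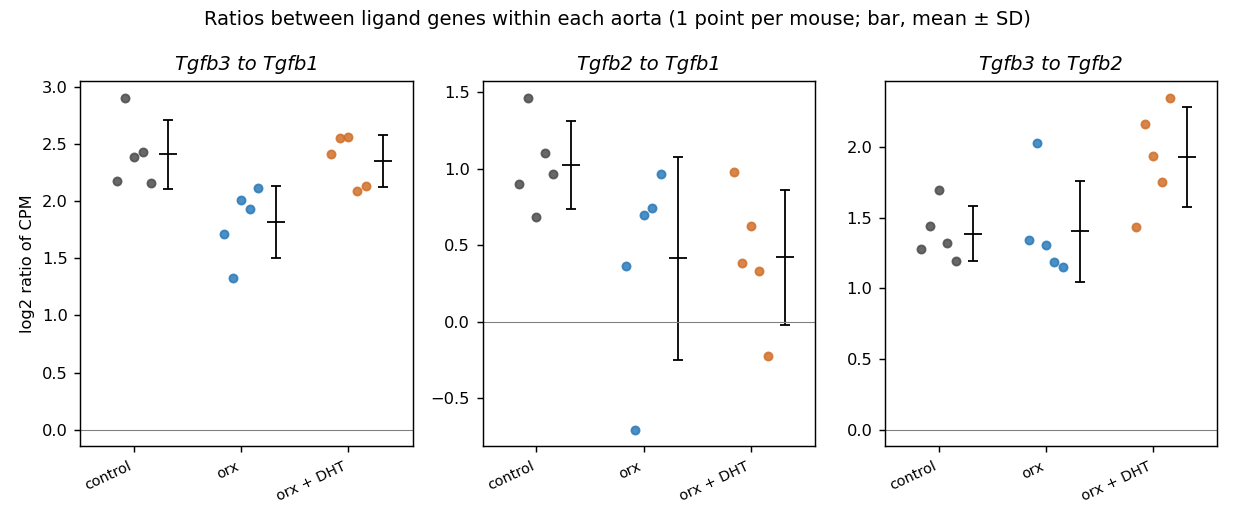
Log2 ratio of the CPM of 2 ligand genes within each aorta, by group (orx, orchiectomized), with the mean and SD beside the points. For *Tgfb3* to *Tgfb1* the orchiectomized mice lie between 1.32 and 2.11 and the control mice between 2.16 and 2.91, with no overlap.

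Ratios of 2 members within an aorta remove any scaling error that both genes share, and 7 ratios were compared in the 3 comparisons, 21 exact two-sided permutation tests in all. The log2 ratio of *Tgfb3* to *Tgfb1* was 2.41 ± 0.302 in control mice, 1.82 ± 0.313 in orchiectomized mice and 2.35 ± 0.227 in DHT-treated mice (SD, n = 5 each). All orchiectomized mice were below all control mice, and the difference was -0.59 (exact permutation P = 0.00794, the smallest possible, adjusted P = 0.111 over the 21 tests). DHT-treated against orchiectomized mice differed by 0.53 (exact permutation P = 0.0159, adjusted P = 0.111) and against control mice by -0.06 (exact permutation P = 0.786). The ratio depends on *Tgfb1* going up and *Tgfb3* being lower in the same mice, and it gives no more independent evidence on *Tgfb1* than its own test.

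Other ratios differed between DHT-treated and control mice at an unadjusted level. *Tgfb2* to *Tgfb1* differed by -0.60 on the log2 scale (exact permutation P = 0.0397, adjusted P = 0.167). *Tgfb3* to *Tgfb2* was higher by 0.54 (exact permutation P = 0.0238, adjusted P = 0.125), and *Tgfbr3* to *Tgfbr2* by 0.32 (exact permutation P = 0.0159, adjusted P = 0.111). None of the 21 tests passed an adjusted P value of 0.05, which would take at least 4 tests at the smallest P value that 5 against 5 mice allow. The ratios of *Tgfbr1* to *Tgfbr2*, *Smad2* to *Smad3* and *Smad7* to *Smad3* gave unadjusted P values of 0.0635 or more in every exact permutation test.

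Within the groups, 5 of the members tended to move together from aorta to aorta, though not every pair of them passed an adjusted threshold. For this the group mean of each gene was removed from its log2 CPM, and 45 pairs of members were correlated over 15 aortas, with P values from 100000 permutations within groups. The strongest pair was *Tgfbr1* and *Skil*, with Pearson's r = 0.957 (adjusted P = 0.000675 over the 45 pairs) and Spearman's rho = 0.915 (adjusted P = 0.00157). Without the 2 aortas farthest from the median it was 0.928. *Tgfb2* followed *Skil* (r = 0.865, rho = 0.935, 0.819 without the 2 farthest aortas) and *Tgfbr1* (r = 0.837, rho = 0.831, 0.698 without them), with adjusted permutation P values for r of 0.000675 and 0.00333. The other pairs with an adjusted permutation P value under 0.05 were *Tgfb2* with *Tgfb3* (r = 0.797) and with *Smad7* (r = 0.765), *Smad7* with *Skil* (r = 0.713) and *Tgfbr1* with *Smad7* (r = 0.618). *Tgfb3* passed with *Tgfb2* alone. Its r was 0.607 with *Skil*, 0.593 with *Tgfbr1* and 0.560 with *Smad7* (adjusted permutation P = 0.0986, 0.0779 and 0.199). Among the other members, *Tgfbr2* had r = 0.638 with *Tgfbr3* and 0.613 with *Smad3* (adjusted permutation P = 0.0986 and 0.0779).

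**Figure D4:**
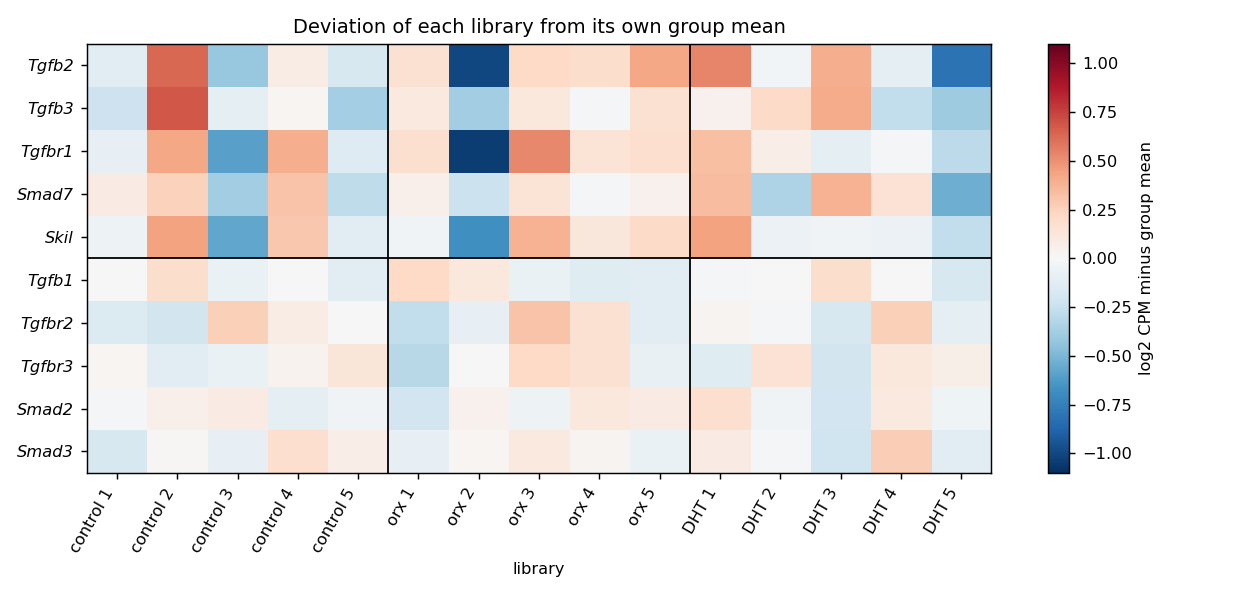
Log2 CPM of each gene in each library (orx, orchiectomized) minus the mean of its own group, as colours from blue (lower) to red (higher). The horizontal line divides the 5 genes grouped after their values were seen from the other 5. In orchiectomized replicate 2 *Tgfb2*, *Tgfbr1* and *Skil* are all dark blue, and in control replicate 2 the upper 5 genes are all red.

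All 7 pairs with an adjusted permutation P value under 0.05 were positive and lay among *Tgfb2*, *Tgfb3*, *Tgfbr1*, *Smad7* and *Skil*, a grouping made after their values were seen. The 10 pairs among these 5 genes had r from 0.560 to 0.957, and at least 0.515 without orchiectomized replicate 2. The 25 pairs of one of them with *Tgfb1*, *Tgfbr2*, *Tgfbr3*, *Smad2* or *Smad3* had r from -0.417 to 0.529, and none passed. Without orchiectomized replicate 2, *Tgfb1* had r = 0.703 with *Tgfb3*, 0.579 with *Tgfb2* and 0.571 with *Smad7*. With *Tgfbr1* and *Skil* it had r = 0.339 and 0.254. The split between *Tgfb1* and the 5 genes thus depended in part on 1 library. The deviations of the 5 genes were large in some aortas: relative to its group mean, orchiectomized replicate 2 was at -1.05 for *Tgfbr1* and -0.68 for *Skil* on the log2 scale, while *Tgfb1* was at 0.11.

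For 3 of the 5 genes such correlations extended to many other genes. *Skil* had r of 0.8 or more with 1068 of the 14120 other genes (7.56%), *Tgfbr1* with 7.91% and *Tgfb2* with 2.69%. *Tgfb3* had 63 such genes (0.446%) and *Smad7* 14 (0.0992%). Of the members outside this set, *Smad3* had more than either, 113 genes, while *Tgfbr3* had 31, *Tgfbr2* 25, *Tgfb1* 22 and *Smad2* 2. Markers of cell types moved with *Skil* too. Over 14 library measures, the level of *Skil* within groups rose with the 8 smooth muscle markers (r = 0.777, rho = 0.715, adjusted permutation P = 0.0145) and fell with the 8 endothelial markers (r = -0.864, rho = -0.741, adjusted permutation P = 0.00609) and the 7 Schwann cell markers (r = -0.765, rho = -0.725, adjusted permutation P = 0.00609). With sequencing depth r was 0.467 (adjusted permutation P = 0.225). For *Tgfb1* no measure had an adjusted permutation P value below 0.907. Its r with the smooth muscle markers was 0.325 (rho = 0.631), and 0.668 without orchiectomized replicate 2. The part of cell composition in these correlations was not tested.

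The rest of the pathway was described by 5 lists with 86 genes, of which 83 were tested and *Fbn2*, *Itgb6* and *Grem1* were too low. After orchiectomy 1 of 83 genes was called at P under 0.01, higher, where 3.22% of all genes were called and 2.08% called higher. With DHT against orchiectomized mice 6 were called, 1 higher and 5 lower, where 2.46% of all genes were called higher and 7.27% lower, and 5 of the 6 had an adjusted P value under 0.05, where 4.72% of all genes did. With DHT against control mice 4 were called, all lower, against 2.01% of all genes, and 2 had an adjusted P value under 0.05, where 0.262% of all genes did. The adjusted calls were less stable than the unadjusted ones. For DHT against orchiectomized mice the adjusted call was lost in 10 of the 15 fits that left out 1 library for *Nrros*, in 9 for *Bmp4*, in 7 for *Tgfbi*, in 1 for *Bmp6* and in 0 for *Thbs1*. For DHT against control mice it was lost in 13 of the 15 for *Bmp6* and in 8 for *Thbs1*. The median log2 fold change over the 83 genes was 0.01, -0.09 and -0.10 in the 3 comparisons.

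The gene called after orchiectomy was *Smad1*, a SMAD of the bone morphogenetic protein (BMP) branch. It was at 30.4, 38.0, 28.3, 32.5 and 30.0 CPM in control mice and at 42.4, 38.7, 38.7, 36.4 and 39.3 CPM in orchiectomized mice, where 4 of 5 mice were above every control mouse. This was a log2 fold change of 0.30 (SE 0.08, adjusted P = 0.280), and it was not called in 3 of the 15 fits that left out 1 library. In the same list of 18 other SMADs and regulators, the repressors *Tgif1* and *Tgif2* had log2 fold changes of 0.52 and 0.61 after orchiectomy (adjusted P = 0.395 and adjusted P = 0.342), and -0.52 and -0.50 (adjusted P = 0.205 and adjusted P = 0.228) for DHT against orchiectomized mice. *Smad5* was at -0.23 in the latter comparison (adjusted P = 0.167). None of these passed the threshold.

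**Figure D5:**
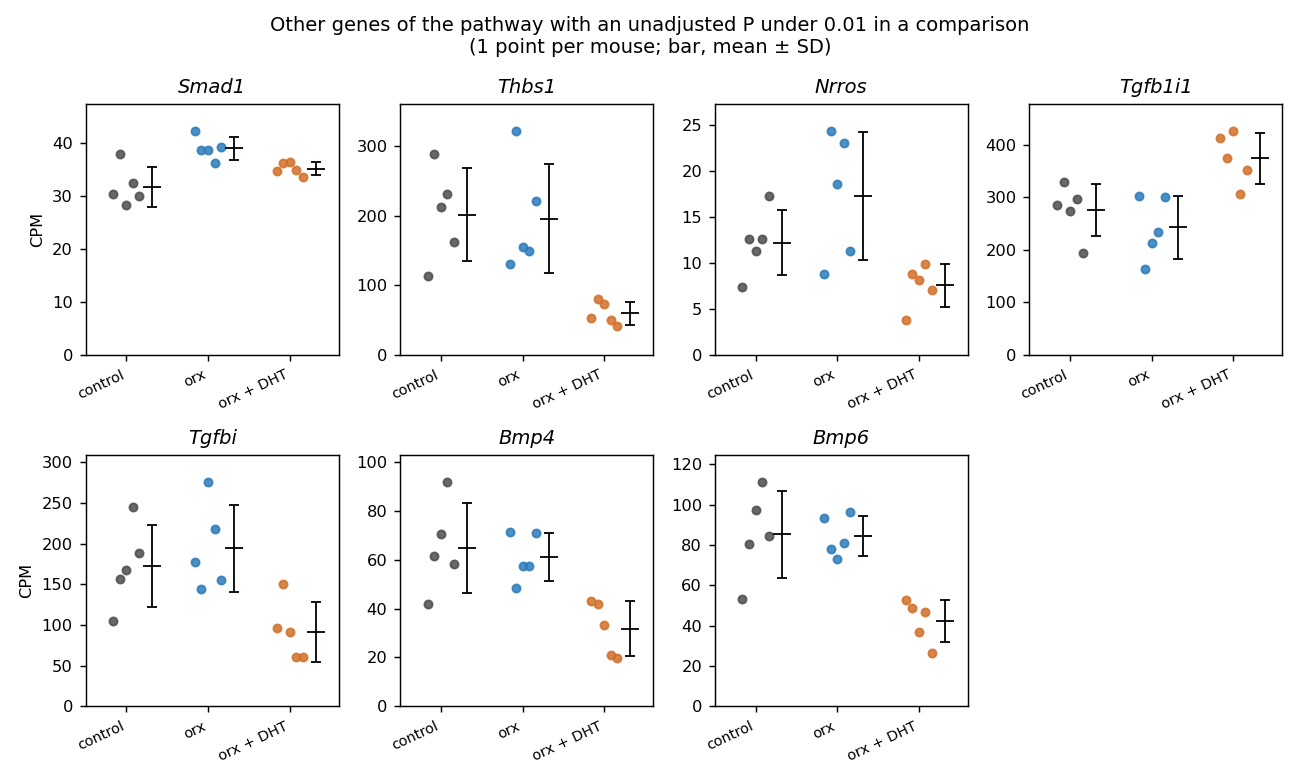
CPM (linear axis, from 0) in each aorta, by group (orx, orchiectomized), of the 7 other pathway genes called in a comparison, with the mean and SD of each group. *Thbs1* and *Bmp6* in the DHT-treated mice lie below all other mice, at 41.2 to 80.5 CPM and 26.4 to 52.8 CPM.

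Among the genes for latency and activation, 2 of 18 tested fell with DHT against orchiectomized mice, a comparison in which 7.27% of all genes were called lower. *Thbs1* encodes thrombospondin-1, which can activate latent TGF-β. It was at 114, 289, 212, 231 and 162 CPM in control mice, at 131, 322, 155, 149 and 221 CPM in orchiectomized mice and at 52.8, 80.5, 73.4, 49.9 and 41.2 CPM with DHT. Every DHT-treated mouse was below every other mouse. On the log2 scale it differed by -1.72 from orchiectomized mice (SE 0.29, adjusted P = 0.00841) and by -1.76 from control mice (SE 0.29, adjusted P = 0.0292), both by edgeR, while orchiectomized against control mice gave -0.04. *Nrros*, whose product anchors latent TGF-β on myeloid cells, was at 17.2 ± 6.94 CPM in orchiectomized and 7.54 ± 2.31 CPM in DHT-treated mice (SD, n = 5 each), with overlapping values and a log2 fold change of -1.20 (edgeR adjusted P = 0.0412). In the same comparison 3 of 8 macrophage markers fell, with summed levels of 238 to 502 CPM with DHT against 452 to 627 CPM, and all of these markers were detected. All 6 tested T cell markers, all 7 B cell markers and both tested neutrophil markers fell too. Without orchiectomized replicates 2, 3 and 4 the *Nrros* value was -0.38 and it was not called. Whether fewer macrophages or other immune cells account for the *Nrros* value was not tested.

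The other genes named in that list did not pass the threshold. *Lrrc32*, which encodes a cell-surface anchor of latent TGF-β, had log2 fold changes of -0.39 after orchiectomy (adjusted P = 0.440) and 0.42 for DHT against orchiectomized mice (adjusted P = 0.220). *Furin*, the protease that cleaves the TGF-β precursor, was at -0.23 after orchiectomy (adjusted P = 0.521). No other receptor of the superfamily was called among 11 tested. Those with the smallest P values after orchiectomy were the type I receptors *Acvr1c* (-0.49) and *Acvr1b* (0.23) and the pseudoreceptor *Bambi* (0.30), and for DHT against orchiectomized mice *Acvr1* (-0.24), *Bambi* (-0.32) and *Acvr2a* (-0.24). None of these had an adjusted P value under 0.311.

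*Tgfb1i1*, which encodes the TGF-β-induced adaptor Hic-5, was the 1 gene of the lists that rose with DHT. It was at 303, 163, 213, 235 and 300.1 CPM in orchiectomized mice and at 413, 375, 427, 306 and 352 CPM with DHT. All DHT-treated mice were above all orchiectomized mice, by a narrow margin. Its log2 fold change was 0.63 (SE 0.18, adjusted P = 0.0553), and against control mice it was 0.44 (adjusted P = 0.363). The summed smooth muscle markers were between 20102 and 24969 CPM with DHT and between 11180 and 20656 CPM in orchiectomized mice, although none of the 8 passed the threshold. Without orchiectomized replicates 2, 3 and 4 the *Tgfb1i1* value was 0.35 and it was not called. The part of smooth muscle content was not tested.

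Of 22 tested target genes 1, *Tgfbi*, fell with DHT against orchiectomized mice, where 7.27% of all genes were called lower. It encodes a secreted matrix protein and was at 194 ± 53.6 CPM in orchiectomized and 91.6 ± 36.7 CPM in DHT-treated mice (SD, n = 5 each), with a log2 fold change of -1.08 (SE 0.27, edgeR adjusted P = 0.0364), and at -0.91 against control mice (adjusted P = 0.223). The collagens *Col1a1* and *Col3a1* had log2 fold changes of -0.44 (adjusted P = 0.163) and -0.46 (adjusted P = 0.255) for DHT against orchiectomized mice and did not pass. After orchiectomy the smallest P values were those of *Cdkn1a* (-0.27), *Id3* (0.35) and *Id1* (0.37), each with an adjusted P value of 0.451 or more. The list's median log2 fold change was -0.03, -0.10 and -0.20 in the 3 comparisons. Of the 8 fibroblast markers, which include *Col1a1*, 3 fell with DHT against orchiectomized mice (3543 to 5649 CPM against 4915 to 6777 CPM). Without orchiectomized replicates 2, 3 and 4 *Tgfbi* was at -0.82 and was not called.

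The BMP and activin list had 2 of 14 tested genes lower with DHT against orchiectomized mice, beside the same 7.27% of all genes. *Bmp4* and *Bmp6* encode BMP ligands. *Bmp6* was at 53.4, 80.4, 97.4, 111 and 84.3 CPM in control mice, at 93.3, 77.9, 73.2, 81.1 and 96.2 CPM in orchiectomized mice and at 52.8, 48.8, 37.0, 46.7 and 26.4 CPM with DHT. Every DHT-treated mouse was below every other mouse, though only just below control replicate 1. *Bmp6* differed by -0.99 on the log2 scale from orchiectomized mice (SE 0.20, edgeR adjusted P = 0.0160) and by -1.01 from control mice (SE 0.20, edgeR adjusted P = 0.0464). *Bmp4* was at 71.3, 48.6, 57.7, 57.3 and 71.0 CPM in orchiectomized mice and at 43.2, 42.1, 33.1, 20.8 and 19.8 CPM with DHT, with no overlap and a log2 fold change of -0.94 (SE 0.24, edgeR adjusted P = 0.0379). Against control mice, from 41.9 to 91.9 CPM, it was -1.02 (adjusted P = 0.0929).

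*Bmp7* and the activin subunit gene *Inhbb* were at 1.02 (adjusted P = 0.488) and 0.25 (adjusted P = 0.620) after orchiectomy, and neither passed. *Bmp7* was near the floor, with means of 1.76 CPM in orchiectomized and 0.866 CPM in control mice. Its orchiectomized values ranged from 0.436 to 5.03 CPM. *Thbs1*, *Bmp4* and *Bmp6* were the genes of the lists that were still called for DHT against orchiectomized mice without orchiectomized replicates 2, 3 and 4, at -1.52, -1.12 and -1.12, with 2 mice in that group, but their adjusted P values in that edgeR fit were 0.201, 0.285 and 0.205, so the adjusted calls were lost. In the same comparison 3 of 8 endothelial markers and all 8 mesothelial markers fell in the fit to all libraries, with summed levels of 679 to 892 CPM against 912 to 1455 CPM and of 16.0 to 35.0 CPM against 69.6 to 846 CPM. All 7 B cell markers fell as well (3.50 to 12.3 CPM against 7.84 to 172 CPM). So did all 6 tested T cell markers (4.44 to 7.64 CPM against 8.16 to 62.8 CPM) and both tested neutrophil markers (1.98 to 11.4 CPM against 5.01 to 29.5 CPM). With DHT against control mice 5 of 8 mesothelial markers (43.4 to 112 CPM in control mice), 3 of 8 endothelial markers (819 to 1221 CPM in control mice) and 2 of 8 fibroblast markers (4689 to 6324 CPM in control mice) fell, and both tested neutrophil markers rose (1.98 to 11.4 CPM against 0.748 to 2.26 CPM). The part of these cell types in the *Thbs1*, *Tgfbi*, *Bmp4* and *Bmp6* values was not tested.

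The positions of 8 of the 10 genes in GENCODE vM21 on GRCm38 are chr7:25687002-25705077 for *Tgfb1*, chr1:186622792-186705989 for *Tgfb2*, chr12:86056745-86079041 for *Tgfb3*, chr4:47353222-47414931 for *Tgfbr1*, chr9:116084293-116175360 for *Tgfbr2*, chr5:107106570-107289629 for *Tgfbr3*, chr9:63646767-63757994 for *Smad3* and chr3:31095058-31122577 for *Skil*.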

How the data were processed

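Poly(A)-selected RNA of 15 mouse aortas was sequenced, 5 libraries per group, with groups taken from the labels. The authors deposited 1 table per library with the unnormalized count of reads on each gene symbol. The submitters' processing notes name STAR, Cufflinks, DESeq2 and mm10; the counting program and annotation are not given in the sources used here. Entries for reads assigned to no gene (6.26% to 14.4%) or to several genes (1.34% to 1.97%) were left out.

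Counts were filtered with filterByExpr (minimum count 10, minimum total count 15), scaled by TMM and tested with the quasi-likelihood model of edgeR 4.0.16 in R 4.3.3, fitted to the 3 groups of all 15 libraries without covariates. A gene was called at an unadjusted P value under 0.01, as in the study, or a Benjamini-Hochberg adjusted P value under 0.05 over 14121 genes. The scripts were tested on simulated data. Log2 CPM used a prior count of 3. Ratios of members were tested by exact permutation of the mice, two-sided. Correlations between members used deviations from group means, with Spearman's rho computed on ranks centred in the same way, and permutations within groups (Python 3.11.15, numpy 2.4.6). Levels per kilobase used merged exons of GENCODE vM21, and promoter windows came from a table of RefSeq windows, in which 5 of the members were matched.

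The members and gene lists were chosen with earlier results of these data known. The text names all members, and of each list the genes with the 3 smallest P values after orchiectomy and for DHT against orchiectomized mice; 1 gene that meets this rule is not reported here. Members called in a comparison were to be given for every library; *Tgfb3*, *Smad2* and *Smad3* were added after their values were seen. Alternatives were DESeq2 1.42.0, RLE size factors, 2 other filters, a fit of the 2 groups compared, the replicate number as a block, a robust fit, limma 3.58.1 (voom with quality weights), an exact permutation test and leaving out each library. No 2 libraries were identical. The biological coefficient of variation was 0.297.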

Additional observations from a re-analysis of the deposited data

Results flagged for a closer look

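A library was set apart where the gap between it and the nearest other library of its group, divided by the range of the group, passed Dixon's 95% critical value for 5 samples (0.71). This was tested in 72 groups of 5, and chance passes about 1 in 20. For 4 of them it was passed. *Tgfb2* in orchiectomized replicate 2 was at 44.8 CPM, against 101 to 121 CPM in the other orchiectomized mice. The log2 ratio of *Tgfb3* to *Tgfb2* in the same library was 2.03, against 1.15 to 1.35. *Tgfb3* in control replicate 2 was at 466 CPM, against 224 to 293 CPM. *Skil* in DHT replicate 1 was at 143 CPM, against 87.0 to 102 CPM. No group of *Tgfb1* or of the 7 called pathway genes was among the 4.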

How the results depend on the processing

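For the members, the 1 call after orchiectomy became 0 with all genes of at least 1 count, with only the 2 groups compared and with voom, and 0 to 1 when 1 library was left out. The 0 calls became 1 with voom for DHT against orchiectomized and against control mice, and were 0 to 1 when 1 library was left out. Adjusted calls remained at 0 in all alternatives run. Calls in the pathway lists were 0 to 1, 6 to 9 and 3 to 6 when 1 library was left out. Without the 3 orchiectomized libraries with the highest B cell markers, chosen after seeing the data, the calls after orchiectomy were 0 for members and lists (*Smad1* was at 0.32, with 2 mice left), and the 6 list calls for DHT against orchiectomized mice became 3. In that fit *Thbs1*, *Tgfbi*, *Bmp4* and *Bmp6* stayed called for DHT against control mice, and *Tgfb1i1* was called too (0.44). With the replicate block, the *Tgfb1* log2 fold change after orchiectomy was 0.31 and still called. The block reduced the calls over all genes from 454 to 285 after orchiectomy. Same-numbered libraries did not deviate together (r from -0.466 to 0.463, 5 of 15 pairs over 0.1), so the numbers were not taken as pairs. The causes of these changes were not tested. Among changes of the other members that had not passed the threshold, some changed sign. Voom gave 0.074 for *Tgfbr1* after orchiectomy, -0.085 for *Tgfbr1* and 0.018 for *Tgfbr3* in DHT against orchiectomized mice. For *Tgfb3* in DHT against control mice, DESeq2 and RLE both gave 0.00300, the filter of 10 counts 0.00674, the replicate block 0.00110, voom 0.079 and the mean log2 CPM 0.017. Leaving out 1 library gave -0.21 to 0.12 for *Tgfbr1* and -0.15 to 0.029 for *Tgfbr2* after orchiectomy, -0.16 to 0.17 for *Tgfbr1* and -0.11 to 0.040 for *Tgfbr3* in DHT against orchiectomized mice, and -0.12 to 0.21 for *Tgfb3*, -0.17 to 0.068 for *Tgfbr1*, -0.12 to 0.013 for *Smad3* and -0.18 to 0.041 for *Smad7* in DHT against control mice.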
